A study of Mus musculus with 2 samples.

Results

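Mir10a, Mir10b, Mir196a-1, Mir196a-2, Mir196b and Mir615 are the miRNA genes that lie inside the 4 Hox clusters and have a row of their own in the count tables. They were chosen by gene symbol, which was matched to the Ensembl gene numbers of the tables through the GENCODE M21 annotation, and all 6 of 6 were found among 1973 miRNA genes. Short RNA (a size range under 30 nucleotides) was sequenced in 2 libraries from whole bladder of newborn mice, at 0 days after birth, of strain B6NCrl. Each library came from 1 bladder, and the labels name the animals as pups 1 and 2 of the same pregnancy. The labels give no treatment, no mutation and no second tissue, and state that sex was not recorded. The samples therefore form 1 group (n = 2), and the comparisons are among the genes and between the littermates.

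Hox genes encode transcription factors that give cells their position along the head to tail axis. Their order along each cluster follows the order of their domains on that axis, with low-numbered paralogue groups anterior and high-numbered groups posterior. The Mir10 genes sit beside group 4 Hox genes and the Mir196 genes beside group 9 genes, and Hox messenger RNAs are among the known targets of both families, such as Hoxb8 for miR-196. The bladder forms at the posterior end of the trunk. Messenger RNAs were not measured in these libraries.

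The mature sequences show which of these genes can be told apart by their reads, so they come first. All sequences are from RefSeq on GRCm38.p6, which held mature sequences for 6 of 6 genes and hairpins for 5 of 6. Capitals mark the seed, bases 2 to 8 from the 5′ end, the part of a miRNA that pairs with its targets first. The miR-10 sequences share the seed ACCCUGU, and the miR-196 sequences share AGGUAGU.
mmu-miR-10a-5p: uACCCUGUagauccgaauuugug
mmu-miR-10b-5p: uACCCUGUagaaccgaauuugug
mmu-miR-196a-5p: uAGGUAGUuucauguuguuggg
mmu-miR-196b-5p: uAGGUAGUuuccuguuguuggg
mmu-miR-615-5p: gGGGGUCCccggugcucggauc
mmu-miR-615-3p: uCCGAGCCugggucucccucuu

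Position counts from 1 at the 5′ end in the following comparisons. The sequences miR-10a-5p and miR-10b-5p are identical at 22 of 23 bases and differ by U12A. The sequences miR-196a-5p and miR-196b-5p are identical at 21 of 22 bases and differ by A12C. Both differences lie outside the seed. No gene beside these in the RefSeq table has a mature miRNA with the seed ACCCUGU, and none outside the 3 Mir196 genes has AGGUAGU as its seed. The same letters AGGUAGU stand at bases 3 to 9 in the 5′ arms of 10 of the 11 let-7 and Mir98 genes in the table, 1 base further from the 5′ end, as in let-7g with those letters in capitals.
mmu-let-7g-5p: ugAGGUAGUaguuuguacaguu

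The mature miR-196a-5p is encoded by both Mir196a-1 and Mir196a-2. Their hairpins, the folded precursors that hold the mature miRNA, share an unbroken run of 22 bases, in capitals here. That run is the whole of miR-196a-5p, and the bases on both sides of it differ.
Mir196a-1: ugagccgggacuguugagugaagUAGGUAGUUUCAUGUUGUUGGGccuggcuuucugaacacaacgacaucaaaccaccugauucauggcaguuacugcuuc
Mir196a-2: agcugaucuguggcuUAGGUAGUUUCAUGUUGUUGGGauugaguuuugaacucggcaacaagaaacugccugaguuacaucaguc

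A read that lies wholly within the shared run cannot be assigned to 1 copy, and in the tables reads with several mapping places form a separate line outside the genes. That line was 2570930 reads in pup 1 and 1390007 in pup 2, or 52.1 and 54.8 times the counts of Mir196b. How many of them came from miR-196a-5p was not tested. The counts of Mir196a-1 and Mir196a-2 are therefore uncertain and can be too low by an unknown amount. Reads that can still be assigned are those that run past the shared bases and those of the opposite arm, whose 22-base sequences are identical at only 5 bases between the copies, counted position by position.
mmu-miR-196a-1-3p: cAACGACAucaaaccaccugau
mmu-miR-196a-2-3p: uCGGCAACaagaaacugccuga

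The other 4 genes were not found to share this limit. None of the mature sequences of Mir10a, Mir10b, Mir196b and Mir615 occurs in the hairpin of another gene among the 1005 hairpins of the RefSeq table. The rest of the genome was not searched. With 1 mismatch allowed, miR-10a-5p and miR-10b-5p matched each other's hairpin, miR-196b-5p matched both Mir196a hairpins, and neither Mir615 sequence matched any. How many mismatches the authors' aligner allowed is not given in the sources used here. Counts are per gene, so the 5′ and 3′ arms of a hairpin are not separated.

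The genes lie on 4 chromosomes, and positions are on GRCm38, the assembly that mm10 names. Mir10b (ENSMUSG00000065500.2) is at chr2:74726070-74726137 on the plus strand in the HoxD cluster, 1142 bases before the coding span of Hoxd4. It falls in introns of transcripts annotated to Hoxd3 and Hoxd4. Mir10a (ENSMUSG00000065519.1) is at chr11:96317165-96317274 on the plus strand in the HoxB cluster, between Hoxb5 and Hoxb4 and 1496 bases before the coding span of Hoxb4. Mir196a-1 (ENSMUSG00000065546.1) is at chr11:96265164-96265265 on the plus strand in the same cluster, 6277 bases before Hoxb9, in the gap that separates Hoxb9 from Hoxb13. GENCODE M21 has no other transcript over Mir10a or Mir196a-1.

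Mir196b (ENSMUSG00000065443.1) is at chr6:52230081-52230165 on the minus strand, the coding strand of the HoxA cluster. It lies 2344 bases after the coding span of Hoxa10 and 3977 bases before that of Hoxa9, and it overlaps an exon in 2 Hoxa9 transcripts and an intron in 1. Mir196a-2 (ENSMUSG00000065488.1) is at chr15:102973350-102973434 on the plus strand in the HoxC cluster, 2278 bases after Hoxc10 and 8219 bases before Hoxc9, within an intron of 1 long Hoxc5 transcript. Mir615 (ENSMUSG00000076010.1) is at chr15:103014910-103015001 on the plus strand in the same cluster, in the intron of Hoxc5. No further gene with a matched position lies between the outermost Hox genes of any of the 4 clusters.

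**Figure D1:**
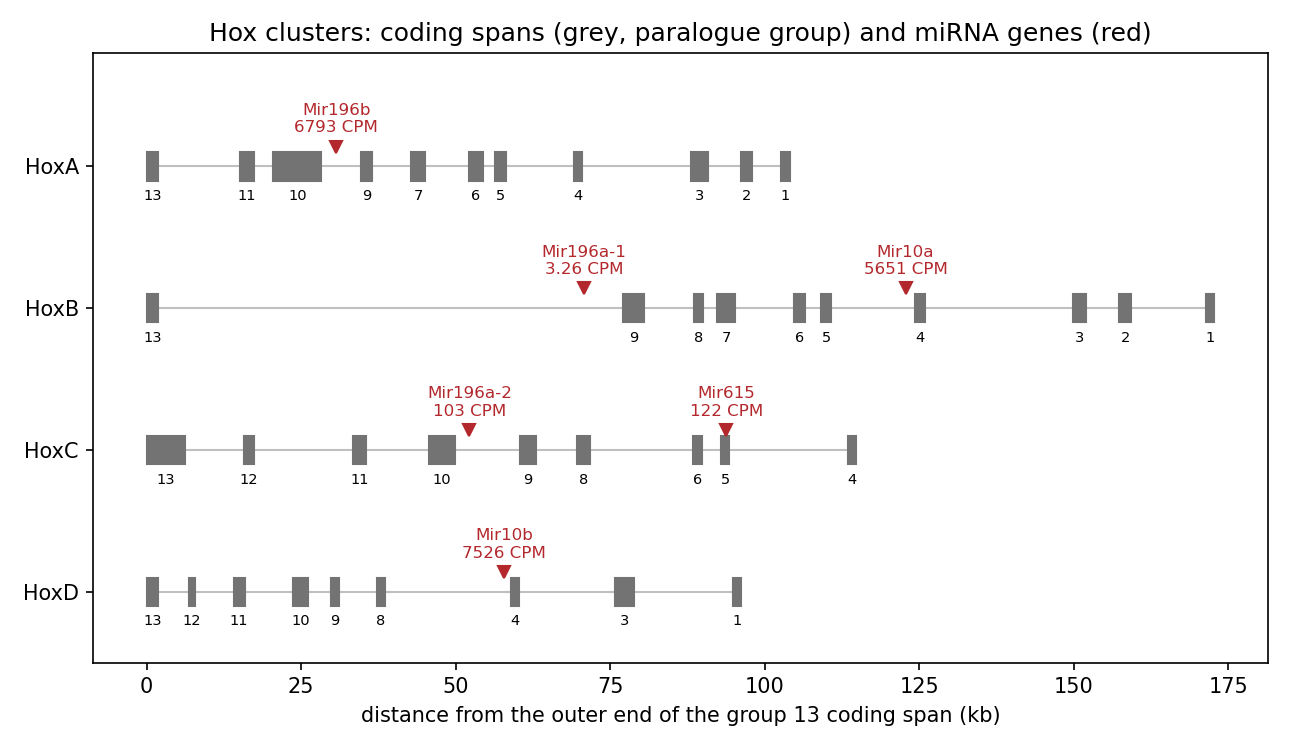
The 4 Hox clusters drawn to scale, with the horizontal axis in kb from the outer end of the group 13 coding span, coding spans of Hox genes in grey with their paralogue group, and miRNA genes in red with their mean CPM over 2 pups. The Mir10 genes stand just before group 4, the Mir196 genes between group 9 and the next higher group present, and Mir615 at group 5.

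Each level is given per 1000000 sense-strand gene counts of its library (CPM), of which there were 7460621 for pup 1 and 3636650 for pup 2. The pup 1 library was 2.05 times deeper, and a count of 0 allows up to 0.402 CPM there and 0.825 CPM in pup 2. Intervals and such limits cover counting error only, since PCR copies cannot be told from separate molecules in these counts. Whole bladder is a mixture, so fewer cells of a type and less RNA per cell cannot be told apart. The marker miRNAs of bladder wall and lining were present in both libraries. The smooth muscle list (Mir143 and Mir145a) summed to 53.7% of counts and the 6 of 6 epithelial genes to 1.33%. Of the striated muscle list, Mir208b had 547 and 191 counts and Mir206 83 and 25, while Mir133a-1, Mir133b and Mir1a-1 had 5 or fewer per library and Mir133a-2 was listed at 0. All 5 neuronal genes with a row were listed at 0. Mir1a, Mir133a, Mir124a and Mir9 also have numbered copies, so their low counts carry the limit described for Mir196a.

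The 6 genes summed to 19375 CPM (pup 1) and 21023 CPM (pup 2), or 2.02% ± 0.117 (SD, n = 2) of all miRNA gene counts. Nearly all of that sum came from Mir10b, Mir196b and Mir10a, which held 98.7% and 99.0% of it. All 6 genes were detected, with at least 1 CPM and 3 counts in both libraries, as were 335 of the 1973 genes in all.

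Mir10b, the HoxD gene, had the highest level, with 53579 counts or 7182 CPM in pup 1 (exact 95% Poisson interval 7121 to 7243) and 28622 counts or 7870 CPM in pup 2 (7780 to 7962). Its mean of 7526 ± 487.1 CPM (SD, n = 2) ranked it 16 among all genes. Ranks here and below are by assigned counts, without the reads with several mapping places. Such reads were 22.7% of all reads in pup 1 and 24.8% in pup 2. Genes whose copies share a mature sequence can therefore rank too low. Mir10a, the paralogue of Mir10b in HoxB, had 39738 counts or 5326 CPM in pup 1 and 21734 counts or 5976 CPM in pup 2. This was a mean of 5651 ± 459.6 CPM and rank 21. Mir10b was the higher of the pair in both pups, and their ranges did not overlap. The ratio of Mir10b to Mir10a was 1.35 in pup 1 (exact binomial 95% interval 1.33 to 1.37) and 1.32 in pup 2 (1.29 to 1.34), with a mean of 1.33 ± 0.022 (SD, n = 2). This ratio is taken within a library and does not depend on scaling.

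Mir196b, the HoxA gene, had 49342 counts or 6614 CPM in pup 1 and 25353 counts or 6972 CPM in pup 2. Its mean was 6793 ± 253.1 CPM, at rank 17, between the Mir10 genes. Mir196b was below Mir10b in both pups, with ratios of Mir10b to Mir196b of 1.09 (1.07 to 1.10) and 1.13 (1.11 to 1.15). It was above Mir10a in both, with ratios of Mir196b to Mir10a of 1.24 (1.23 to 1.26) and 1.17 (1.15 to 1.19). These 3 genes thus lay within a 1.35-fold range in pup 1 and a 1.32-fold range in pup 2, although they belong to 3 clusters and 2 seed families. Their order was the same in both pups, and the ranges over the pups of neighbours in the order did not overlap.

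Mir196a-2, the HoxC gene with the shared mature sequence, had 858 counts or 115.0 CPM in pup 1 (107.4 to 123.0) and 334 counts or 91.8 CPM in pup 2 (82.3 to 102.2). Mir196a-1 of HoxB had 24 counts or 3.22 CPM (2.06 to 4.79) and 12 counts or 3.30 CPM (1.71 to 5.76). Of the counts that could be assigned to a copy, Mir196a-2 had 35.8 times as many as Mir196a-1 in pup 1 (95% interval 23.9 to 56.1) and 27.8 times as many in pup 2 (15.7 to 54.4). Mir196b had 55.9 times the counts of both Mir196a copies together in pup 1 (52.3 to 59.9) and 73.3 times in pup 2 (65.9 to 81.7). With the reads of the shared run listed apart, the last ratio is a ratio of assigned counts and can overstate the ratio of the mature miRNAs by an unknown amount.

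Mir615, inside the Hoxc5 intron, had 1008 counts or 135.1 CPM in pup 1 (126.9 to 143.7) and 398 counts or 109.4 CPM in pup 2 (98.95 to 120.7). Its mean of 122.3 ± 18.2 CPM ranked it 147. Mir10a was 39.4 times higher than Mir615 in pup 1 (37.0 to 42.0) and 54.6 times higher in pup 2 (49.5 to 60.5). Mir615 and Mir196a-2 are neighbours in the order of levels, and their ranges over the pups overlapped. Within each library Mir615 was nevertheless the higher, with ratios to Mir196a-2 of 1.17 (1.07 to 1.29) and 1.19 (1.03 to 1.38).

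**Figure D2:**
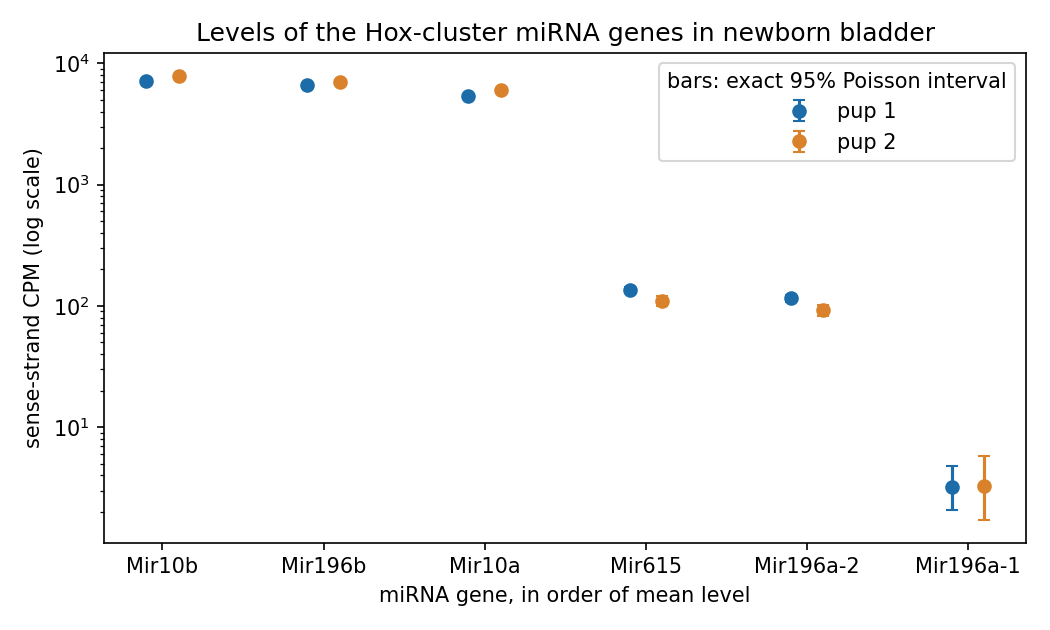
Sense-strand CPM of each gene on a log axis, in order of mean level, with 1 point per pup and exact 95% Poisson intervals as bars. Mir10b, Mir196b and Mir10a lie between 5326 and 7870 CPM, Mir615 and Mir196a-2 between 91.8 and 135.1 CPM, and Mir196a-1 near 3.3 CPM.

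A read here covers a short mature arm rather than a stretch of a longer transcript, so the counts were not divided by gene length in the levels above. Per 100 bases of annotated hairpin the order of the 6 genes was the same, with means of 11068 CPM for Mir10b, 7991 for Mir196b, 5138 for Mir10a, 133 for Mir615, 122 for Mir196a-2 and 3.19 for Mir196a-1. On that scale the mean ratio of Mir10b to Mir10a was 2.16, against 1.33 without the division, and that of Mir196b to Mir10a was 1.56, against 1.20. Ligation and amplification can favour some sequences over others in libraries of short RNA. This was not tested, and it limits comparisons between genes more than comparisons of 1 gene between pups.

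By cluster, HoxD (Mir10b) gave a mean of 7526 CPM, HoxA (Mir196b) 6793 CPM and HoxB (Mir10a and Mir196a-1) 5655 ± 459.7 CPM. The HoxC genes Mir196a-2 and Mir615 summed to 250.1 CPM (pup 1) and 201.3 CPM (pup 2), a mean of 225.7 ± 34.5 CPM. HoxD was 28.7 times higher than HoxC in pup 1 (27.4 to 30.1) and 39.1 times higher in pup 2 (36.3 to 42.1). HoxB was 21.3 times higher than HoxC in pup 1 (20.3 to 22.3) and 29.7 times higher in pup 2 (27.6 to 32.0). These are ratios of assigned counts, by which HoxC was the lowest cluster in both pups. Its sum includes Mir196a-2 with the limit described above, while Mir615, whose mature sequences occur in no other listed hairpin, was itself below Mir10a, Mir10b and Mir196b in both libraries. Reads with several mapping places, 2570930 in pup 1 and 1390007 in pup 2, far exceeded the HoxB counts of 39762 and 21746. The order of the clusters for the mature miRNAs is therefore not settled by these counts.

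**Figure D3:**
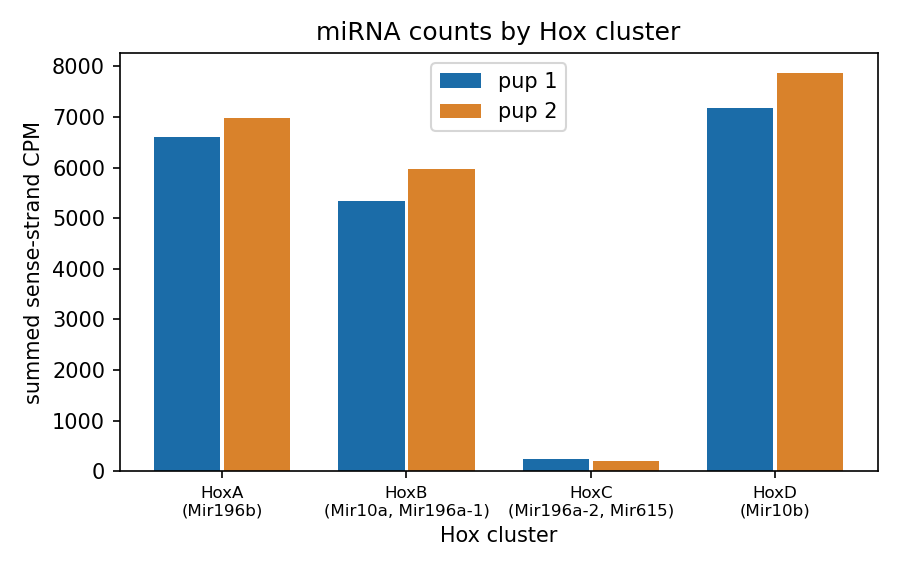
Summed sense-strand CPM of the miRNA genes in each Hox cluster, from 0, with 1 bar per pup and the genes named under each cluster. HoxA, HoxB and HoxD stand between 5330 and 7870 CPM, and HoxC at 250.1 CPM (pup 1) and 201.3 CPM (pup 2).

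The genes were also set side by side by place within a cluster. The Mir10 genes, 71.1% (Mir10a) and 60.2% (Mir10b) of the way from the group 13 end to the low-numbered end, summed to 12508 CPM (pup 1) and 13847 CPM (pup 2). The Mir196 genes, at 29.5% (Mir196b), 41.0% (Mir196a-1) and 45.5% (Mir196a-2), summed to 6732 and 7067 CPM. The Mir10 genes together had 1.86 times the counts of the Mir196 genes in pup 1 (1.84 to 1.88) and 1.96 times in pup 2 (1.93 to 1.99), a mean ratio of 1.91 ± 0.072 (SD, n = 2). That ratio is of assigned counts, and the Mir196 sum leaves out miR-196a-5p reads with several mapping places. The gap between the sums, 43093 counts in pup 1 and 24657 in pup 2, equals 1.68% and 1.77% of such reads, so the direction of the ratio for the mature miRNAs is not settled by these counts. Mir615, at 81.7% of the HoxC cluster, was below both Mir10 genes. HoxC ends at Hoxc4 while HoxB and HoxD run to group 1, so by paralogue group Mir615, at group 5, stands on the higher-numbered side of the Mir10 genes, which are beside group 4.

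Mir99a, Mir99b and Mir100, relatives of the Mir10 genes outside the Hox clusters, were chosen for comparison. Their 5′ sequences share a seed of their own, ACCCGUA. Mir99a is shown because it was the most abundant of them.
mmu-miR-99a-5p: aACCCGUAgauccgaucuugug

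Mir99a had 37088 CPM in pup 1 and 44327 CPM in pup 2, 5.16 and 5.63 times the level of Mir10b. Mir99b had 6883 and 6426 CPM, and Mir100 2402 and 2668 CPM. Mir10b was 2.99 and 2.95 times higher than Mir100. Mir99b was above Mir10a in both pups, by 1.29 and 1.08 times. Mir99a, Mir99b and Mir100 together had 3.71 times the counts of the Mir10 pair in pup 1 (3.68 to 3.73) and 3.86 times in pup 2 (3.82 to 3.90).

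Likeness of level was measured as the larger of the absolute log2 differences in CPM in the 2 libraries, over 495 other genes with counts in both. Mir30e was nearest to Mir196b, at 6513 and 6939 CPM (difference at most 0.022), and also to Mir10b (0.18). Mir411 was nearest to Mir10a (0.16), Mir671 to Mir615 (0.081), Mir543 to Mir196a-2 (0.031) and Mir3080 to Mir196a-1 (0.12). With 2 libraries of 1 tissue this is likeness of level alone.

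The littermates differed little at these genes. Mir10a, Mir10b and Mir196b were slightly higher in pup 2, and Mir615 and Mir196a-2, the HoxC genes, were slightly higher in pup 1. After TMM scaling of library sizes, the log2 ratio of pup 2 over pup 1 was 0.19 for Mir10a (counting SE 0.012), 0.16 for Mir10b (0.011) and 0.10 for Mir196b (0.011). It was -0.28 for Mir615 (counting SE 0.085) and -0.30 for Mir196a-2 (0.093), or 1.21-fold and 1.23-fold higher in pup 1. It was 0.09 for Mir196a-1 with a counting SE of 0.50.

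With Benjamini-Hochberg adjustment over 362 genes, the exact binomial test (two-sided) called 5 of the 6 genes different between the libraries, where it called 32.3% of all tested genes. The adjusted p of this exact test was 9.76e-53 for Mir10a, 1.73e-47 for Mir10b, 4.59e-18 for Mir196b, 0.0040 for Mir615 and 0.0047 for Mir196a-2, and 0.95 for Mir196a-1. The 3 genes called higher in pup 2 compare with 19.1% of all genes called in that direction, and the 2 called higher in pup 1 with 13.3%. Of all 117 calls, 69 were higher in pup 2 and 48 in pup 1, a split that became 56 and 69 with DESeq2 size factors. Among genes with at least 100 counts summed, which leaves out Mir196a-1, 48.8% were called, against 5 of 5 here. Smaller differences are called at higher counts, and Mir10b, Mir196b and Mir10a ranked 16, 17 and 21 among all genes. These shares are therefore not a like background for those genes. None of the 6 genes was both called and at least 2-fold different, while 2.76% of all genes were. The test sets the libraries against read counting noise alone.

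The median log2 ratio of the 6 genes was 0.09, beside 0.03 over all 362 genes, and the median absolute log2 ratio was 0.17, beside 0.16. Counting error widens the ratios of genes with few counts, so the medians over all genes are not a like background either. With the spread between these libraries added, a biological coefficient of variation of 13.2%, edgeR's exact test called 0 of the 6 genes, with an adjusted p of 1 for each and 0 of 6 at an unadjusted p under 0.05. That test called 1.38% of all genes. Its spread was estimated from the same 2 libraries that it compares, so it could hardly call genes whose difference was of common size. Since each side holds a single library, neither test addresses a difference between animals in general.

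**Figure D4:**
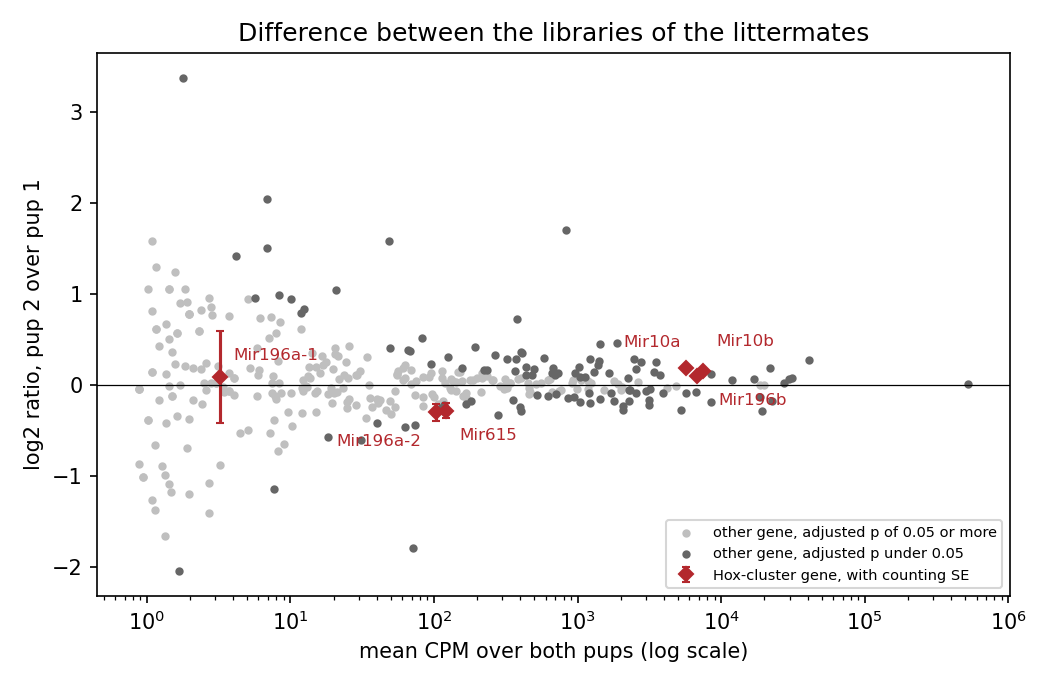
Log2 ratio of pup 2 over pup 1 against mean CPM on a log axis for the 362 tested genes, with the Hox-cluster genes as red diamonds with their counting SE. The red points lie between -0.30 and 0.19, among the grey points of other genes of like level.

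Some cell type markers also differed between the libraries, and others did not. The liver miRNA Mir122, 1 of 1 marker, had 111.8 CPM for pup 1 against 31.6 CPM for pup 2, and the striated muscle list, detected for 2 of 6 genes with Mir133a-2 listed at 0, summed to 85.9 and 60.8 CPM. Both sums were higher in pup 1, as Mir615 and Mir196a-2 were. In the striated muscle list Mir208b was called and Mir206 was not. The blood cell list, detected for 5 of 5 genes with a row, summed to 1148 and 2300 CPM, in the direction of Mir10a, Mir10b and Mir196b. Most of that difference was Mir223, at 396.2 and 1274 CPM, and 3 of the 5 genes were called higher in pup 2. Mir155, at 77.3 and 70.7 CPM, was not called, nor was Mir150, at 29.1 and 31.9 CPM. The 2 smooth muscle genes were called higher in pup 2, with log2 ratios of 0.015 (Mir143) and 0.058 (Mir145a). Of the 6 epithelial genes, 1 was called higher in pup 2 and 1 in pup 1, and the endothelial Mir126a was not called. The part of these cells in the differences was not tested.

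Ratios between the genes do not depend on scaling. The ratio of Mir196b to Mir615 was 49.0 in pup 1 (46.0 to 52.2) and 63.7 in pup 2 (57.7 to 70.5), with counting intervals that did not overlap. The intervals of Mir10a to Mir615 and of Mir10b to the HoxC sum, given above, did not overlap between the pups either. Those of Mir615 to Mir196a-2 overlapped, as did those of Mir10b to Mir10a and of Mir196a-2 to Mir196a-1. Ratios among the 3 abundant genes also moved beyond counting error, since the intervals of Mir10b to Mir196b and of Mir196b to Mir10a did not overlap between the pups.

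All counts of the 6 genes fell on the annotated strand. Counts on the opposite strand were 0 of 144549 in pup 1, which allows a share of up to 0.0021%, and 0 of 76453 in pup 2, which allows up to 0.0039%. Over all genes they were 244639 of 7705260 in pup 1 and 119557 of 3756207 in pup 2. Mir99a, Mir99b and Mir100 also had 0 in both libraries, so this is not particular to the Hox-cluster genes. Which column held which strand was itself read from the values.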

How the data were processed

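Reads of 2 libraries were aligned to mm10, per the labels, and counted over GENCODE M4 genes, per the deposited README. Which aligner, counter and filters served is not given in the sources used here. Raw whole-number counts per miRNA gene were deposited, in 1 headerless table per library, not pooled. The strand of each column was read from the values. The 4 lines of unassigned reads, 32.0% of reads in pup 1 and 33.0% in pup 2, stayed out of library sizes and tests. Of 1973 IDs, 1894 matched GENCODE M21.

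CPM, SDs and exact intervals were computed in Python 3.11.15 with scipy 1.17.1. Library sizes for the comparison of pups were scaled by TMM (edgeR 4.0.16, R 4.3.3). The exact conditional binomial test used genes with at least 10 counts summed, a threshold of 0.05 and a prior count of 0.5 in ratios. It was tested on simulated data with read counting noise alone. That run does not show how the test behaves with the added spread of these libraries. Alternatives were DESeq2 1.42.0 size factors, total count scaling, other count minimums, edgeR's exact test, both strands, a minimum of 2-fold, other totals and each pup left out.

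The text names the 6 genes, the relatives Mir99a, Mir99b and Mir100, the gene nearest in level to each of the 6, and markers where a result turns on them. Members and lists were chosen with earlier results of these data known. Whether the pups' libraries differ only technically cannot be told, so SDs cover the spread between these samples, and p-values of the binomial test cover read counting alone.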

Additional observations from a re-analysis of the deposited data

How the results depend on the processing

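The summed level of the 6 genes, 20199 CPM, was 42502 CPM with Mir143 left out of the total and 13197 CPM with all listed reads as the total, since both change the denominator. It was 19557 CPM in counts of both strands and ranged from 19375 to 21023 CPM with each pup left out. With each pup left out, the ratio of Mir10b to Mir10a ranged from 1.32 to 1.35, that of the Mir10 to the Mir196 genes from 1.86 to 1.96, and that of Mir196b to the Mir196a copies from 55.9 to 73.3. The 5 genes called different between the libraries fell to 0, and all genes called from 117 to 5, with edgeR's exact test. The spread in that test came from the same 2 libraries. With a 2-fold minimum they fell to 0 and 10. Under 5 alternatives of scaling, count minimum and strand, 5 genes were called each time. The log2 ratios kept their direction under every alternative run. They ranged from 0.13 to 0.19 for Mir10a, 0.09 to 0.16 for Mir10b, 0.04 to 0.10 for Mir196b, -0.34 to -0.28 for Mir615 and -0.36 to -0.30 for Mir196a-2. At 10 CPM in both libraries 5 of the 6 genes were detected, without Mir196a-1. Division by hairpin length, chosen after seeing the data, gave a ratio of Mir10b to Mir10a of 2.16. No paired analysis was possible because the samples form 1 group. Depth limits Mir196a-1 most, with 24 and 12 counts.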
